A study of Mus musculus with 10 samples.

Results

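Cadherins and protocadherins are membrane proteins that hold neighbouring cells together through calcium-dependent contacts, and catenins tie the cytoplasmic tails of classical cadherins to actin. Members were taken by gene symbol: Cdh followed by a digit, Pcdh, Celsr, Dsc or Dsg followed by a digit, Ctnn, and Fat1 to Fat4. Of 13534 genes with a probe set that carries a single gene symbol, 64 met this rule, through 75 probe sets, and the brightest probe set stands for each gene. They comprise 24 clustered protocadherins, 8 non-clustered protocadherins and 32 other genes. The last group holds 2 type I and 10 type II classical cadherins, 2 other cadherins, 7 desmosomal cadherins, 3 Celsr and Fat cadherins and 8 catenins or catenin-like genes. Cdh13, Pcdh9, Celsr1, Celsr2 and Fat3 are not analysed here.

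The samples are forebrains of newborn mice (postnatal day 0), each from a separate animal. In 5 double knockout animals (DKO, genotype Elavl3-/-;Elavl4-/-) both genes for the neuronal RNA-binding proteins Elavl3 and Elavl4 were disrupted, and 5 wild-type animals (WT) are the controls. All 10 animals have a mixed C57BL/6 and CD-1 background, and the sources used here do not say how the alleles were made. The series describes littermate pairs, but no label says which animals belong together, so the groups were compared without pairs and replicate numbers only name animals. The comparison asks which transcripts differ in forebrain when both proteins are missing.

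Classical cadherins of the forebrain sort neurons into nuclei and layers, and many type II cadherins mark particular brain regions. Clustered protocadherins are made from the alpha, beta and gamma gene arrays, in which a neuron uses its own combination of promoters and so carries its own surface identity. Non-clustered protocadherins act in axon growth and synapse formation, while Celsr and Fat proteins are very large cadherins of planar polarity and tissue growth. Elavl3 and Elavl4 bind U-rich sequences in transcripts of neurons and act on splicing, stability and translation.

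Values are log2 expression values after the authors' RMA, in which a difference of 1 is a 2-fold change. Elavl3 was at 5.53, 5.89, 5.76, 6.02 and 6.94 in DKO forebrains, against 11.28, 11.16, 10.52, 11.21 and 11.39 in WT forebrains. Elavl4 was at 5.88 to 6.49 in DKO and 7.42 to 7.69 in WT. For both genes every DKO value lay below every WT value (limma's adjusted p = 3.15e-05 and 0.0130). The genotype label names both genes, though a label alone does not fix the RNA level. The Elavl4 difference stayed between -1.38 and -1.22 when single arrays were left out, but its adjusted p was above 0.05 in 7 of those 10 fits, up to 0.0761. WT replicate 4 stands apart: over all probe sets it correlated with the other arrays at 0.933 to 0.946, against 0.958 to 0.974 among the other 9. Values without it are given beside the differences it moved most. Of the forebrain markers 6 were measured. Neurod6 was at 11.32 in DKO and 11.27 in WT, Bcl11b at 10.99 and 10.90, and Tbr1 at 8.33 in both. Dlx1 (8.61 and 8.46) and Dlx2 (8.45 and 8.31) had higher means in DKO, and Emx1 (6.32 and 6.53) a lower one. No marker of any list passed the test. The 2 measured markers of meninges and fibroblasts, Col1a2 and Foxc1, had mean deviations of -0.15 to -0.01 in DKO and 0.04 to 0.11 in WT, groups that do not overlap, and the part of this in the values below was not tested.

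No cadherin, protocadherin or catenin differed between DKO and WT forebrain in the test. Of the 64 members 0 passed in limma's fit over all 65529 probe sets (Benjamini-Hochberg adjusted p under 0.05), where 0.00763% of all probe sets passed, all of them lower in DKO, and 0.0148% of all genes by their brightest probe set. An unadjusted p under 0.05 was found for 0 members, against 2.14% of all genes (0.598% higher and 1.54% lower in DKO). The smallest unadjusted p among members was 0.0663, for the clustered protocadherin Pcdhb17 (limma's adjusted p = 0.824). The members' differences, DKO minus WT, ran from -0.22 to 0.36 with a median of 0.001, and the median over all genes was -0.03. Of the members 32 were above 0 and 31 below, with 1 at 0, and 39.1% of all genes were above 0. Without WT replicate 4 the members' median was -0.03, with 25 above 0 and 39 below.

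The intervals say how large a difference these arrays leave room for. For 58 members the whole 95% interval stayed inside 1.5-fold in both directions (90.6%, against 91.1% of all genes), and it stayed inside 2-fold for all 64 (100%, against 99.0% of all genes). The 6 whose intervals reached past 1.5-fold were Pcdhb6, Pcdhb7, Pcdhb17, Pcdhb18 and Pcdhga10 among the clustered protocadherins and the desmosomal cadherin Dsc3. A total of 9 members stayed below 5.15, the median of all values, on all 10 arrays: Cdh19, Cdh26, Ctnna3, Dsc1, Dsc2, Dsg1b, Dsg3, Dsg4 and Pcdhb1. For such dim probe sets a small difference in signal says little about the transcript. In this bulk tissue, fewer cells of a type and less RNA per cell cannot be told apart.

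**Figure D1:**
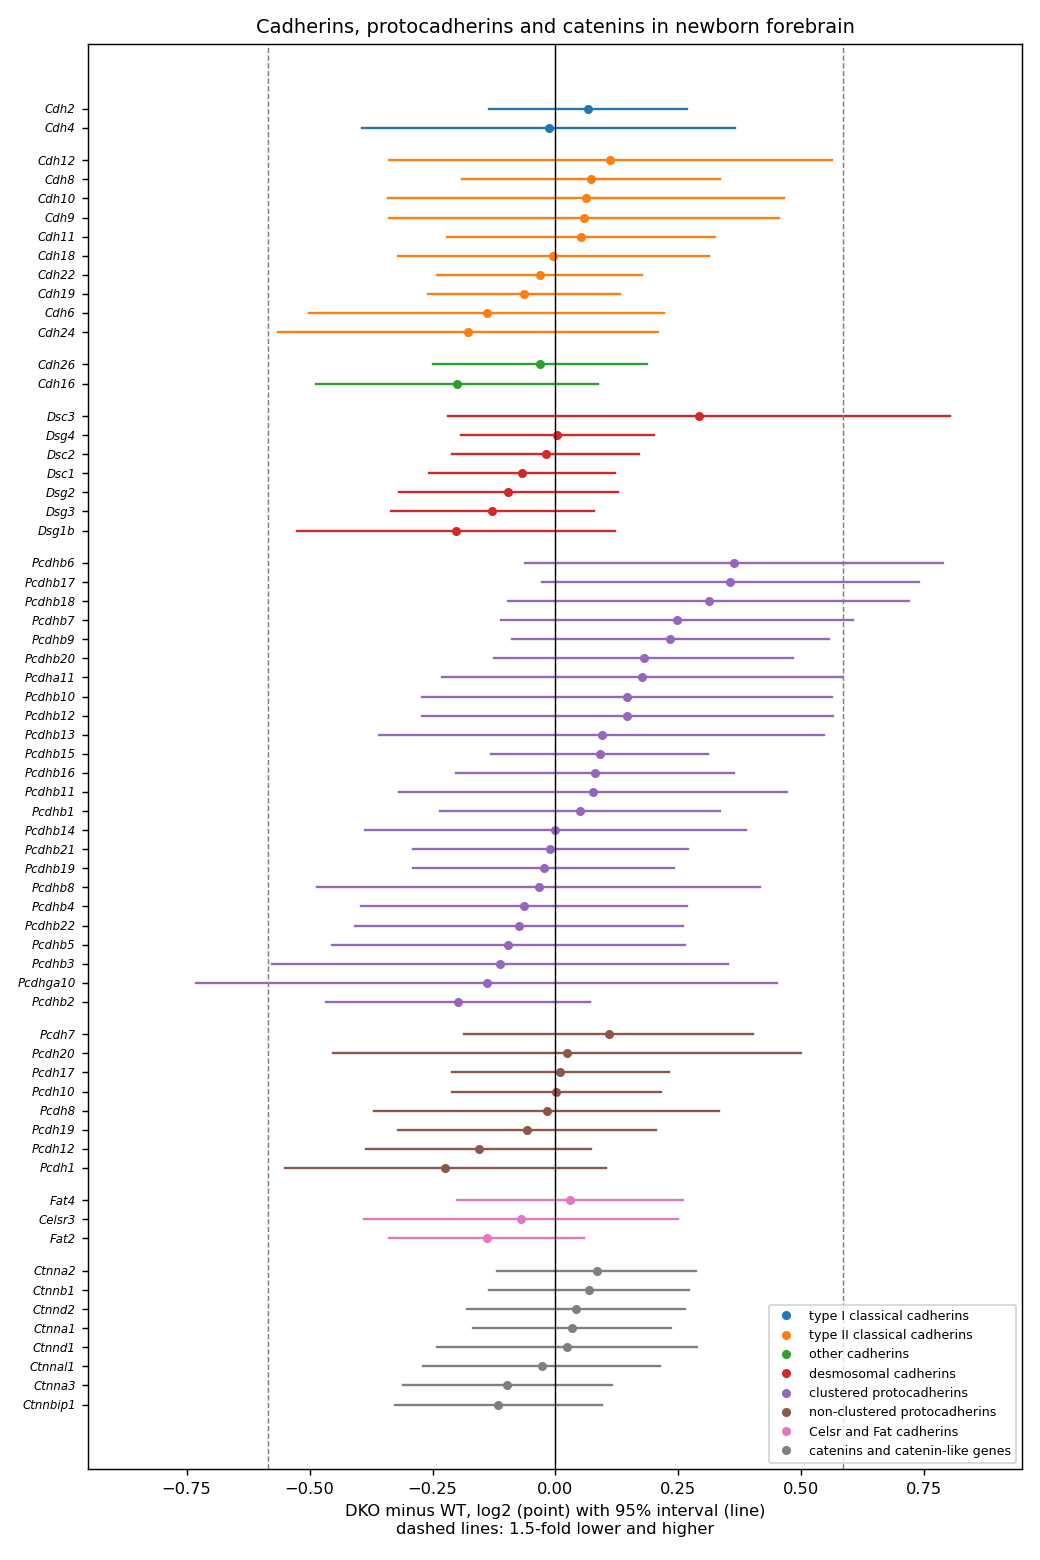
Difference between DKO and WT forebrain (DKO minus WT, log2, horizontal axis) for each of the 64 members, one per row and grouped by family. Points are differences of means over 5 animals per group and lines are limma's 95% intervals. Dashed lines mark 1.5-fold. All intervals include 0, and those of Pcdhga10, Dsc3, Pcdhb6, Pcdhb7, Pcdhb17 and Pcdhb18 reach past a dashed line.

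Among the type I classical cadherins, Cdh2 encodes N-cadherin, the main adhesion molecule between neural progenitors and at young synapses. It was at 10.35, 10.24, 10.24, 10.39 and 10.33 in DKO forebrains, against 10.23, 10.20, 10.37, 10.15 and 10.27 in WT forebrains. The groups overlapped, and the difference of 0.07 (SE 0.0916, 95% interval -0.14 to 0.27) did not pass (limma's adjusted p = 0.919, exact permutation p = 0.230). The interval reaches from 0.911 to 1.20 times the WT level, so a 1.5-fold change of Cdh2 lies outside it, and the difference was 0.04 without WT replicate 4. Cdh4, or R-cadherin, averaged 10.48 ± 0.27 in DKO and 10.49 ± 0.30 in WT (SD, n = 5 each). Its highest values were 10.94 in DKO replicate 4 and 10.83 in WT replicate 3, so the spread within each group exceeded the difference of -0.01, which was 0.06 without WT replicate 4. Cdh4 had 2 further probe sets with differences of 0.21 and 0.02, also without a call.

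Type II cadherins showed no call, with 5 of 10 differences above 0 and a median of 0.02. Without WT replicate 4 the median was -0.04, with 2 above 0 and 8 below. Cdh8, which marks subsets of cortical and striatal neurons, was at 10.40, 10.08, 10.20, 10.38 and 10.28 in DKO forebrains, against 10.31, 10.20, 10.44, 10.01 and 10.02 in WT forebrains. Both groups covered nearly the same range, and the difference was 0.07 (95% interval -0.19 to 0.33, limma's adjusted p = 0.933), or 0.03 without WT replicate 4. Cdh11, expressed in neurons as well as in mesenchymal cells, averaged 8.62 ± 0.10 in DKO and 8.56 ± 0.22 in WT (SD, n = 5 each). Its difference of 0.05 had an adjusted p of 0.956 in limma's fit, and was -0.03 without WT replicate 4. The greatest negative difference of the family was that of Cdh24, at -0.18. It averaged 5.65 ± 0.28 in DKO and 5.83 ± 0.30 in WT (SD, n = 5 each), and WT replicate 5 alone reached 6.35 (limma's adjusted p = 0.886).

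Type II cadherin genes Cdh6, Cdh9, Cdh10, Cdh12 and Cdh18 all lie on chromosome 15, and they varied together between animals. The set was picked after their values were seen and is given as a description. The deviations of these 5 genes from their group means correlated over the 10 arrays with a mean r of 0.79 (10 gene pairs, 0.64 to 0.93), and 0.77 without WT replicate 4. The mean over the 5 other type II cadherins was 0.06 (-0.50 to 0.75), and over all genes 0.04. Between the 5 genes and the beta protocadherins (Pcdhb), which lie on another chromosome, it was 0.47 (110 gene pairs). The co-variation was thus not particular to genes of chromosome 15. These values share arrays, normalisation and tissue, and genes are not independent replicates. The 100 bases before an annotated start of each gene are shown because the genes moved together. They come from RefSeq on GRCm38.p6, a later build than the mm8 of the arrays, are written 5′ to 3′ on the strand of the gene, and have each CG dinucleotide in capitals.
Cdh6, minus strand, chr15:13173676-13173775: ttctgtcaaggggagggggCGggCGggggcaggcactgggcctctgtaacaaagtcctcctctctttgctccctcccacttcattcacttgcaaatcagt
Cdh9, plus strand, chr15:16728815-16728914: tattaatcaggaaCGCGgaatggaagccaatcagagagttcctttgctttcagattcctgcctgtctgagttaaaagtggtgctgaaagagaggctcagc
Cdh10, plus strand, chr15:18820229-18820328: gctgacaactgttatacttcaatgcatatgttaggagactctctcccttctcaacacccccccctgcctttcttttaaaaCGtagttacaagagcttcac
Cdh12, plus strand, chr15:21111352-21111451: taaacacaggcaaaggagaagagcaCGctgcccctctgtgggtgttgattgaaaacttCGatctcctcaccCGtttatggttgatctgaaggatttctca
Cdh18, plus strand, chr15:23036363-23036462: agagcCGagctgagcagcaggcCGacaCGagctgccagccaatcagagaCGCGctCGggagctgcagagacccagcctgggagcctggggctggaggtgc
In the 250 bases before these starts the 5 genes had 2 to 8 CG dinucleotides, and 0 of the 5 had 10 or more, against 54.8% of the 10469 array genes with such a window. Of the 8 type II cadherins with a window 3 had 10 or more, and these lie outside the 5 genes. All 7 catenin genes with a window had 10 or more (18 to 36). The annotated gene begins 365 to 2732 bases upstream of the start used for Cdh6, Cdh9 and Cdh10, 487565 bases upstream for Cdh18 and 662574 bases upstream for Cdh12. Other starts were not searched, and a CG count is no measure of methylation or use.

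The values of these 5 cadherins show which animals were high and low. Cdh10 was at 8.87, 8.48, 8.45, 9.01 and 8.70 in DKO forebrains, against 8.68, 8.44, 9.06, 8.15 and 8.87 in WT forebrains. Cdh12 was at 8.25, 7.50, 7.64, 7.93 and 8.14 in DKO forebrains, against 7.75, 7.38, 8.06, 7.45 and 8.26 in WT forebrains. For both genes DKO replicates 2 and 3 and WT replicates 2 and 4 were the 4 lowest animals, so each group held high and low animals and the group means lay close together. The differences were 0.06 for Cdh10 (limma's adjusted p = 0.964) and 0.11 for Cdh12 (adjusted p = 0.940), and that of Cdh12 was the greatest positive one of the type II cadherins. They were -0.06 for Cdh10 and 0.03 for Cdh12 without WT replicate 4. The other 3 genes of the set differed by -0.14 (Cdh6), 0.06 (Cdh9) and -0.004 (Cdh18), again without a call, and by -0.21, -0.05 and -0.04 without that array. Averaged over the 5 genes, the deviation from the mean over all arrays was lowest in WT replicate 4, at -0.34, and highest in WT replicate 3, at 0.30. Some animals with nearest numbers were alike: DKO replicate 4 and WT replicate 3 (0.26 and 0.30), DKO 3 and WT 2 (-0.24 and -0.23), DKO 1 and WT 5 (0.19 and 0.22). Others were not: DKO 2 and WT 1 (-0.27 and 0.004), DKO 5 and WT 4 (0.09 and -0.34). Whether these are littermates is not stated, so the animals may not be independent. The 3 measured neuron markers (Rbfox3, Stmn2 and Tubb3) were also low in DKO replicate 3 and WT replicates 2 and 4. They were high in DKO replicates 1 and 4. The 3 measured markers of endothelium and pericytes were low in DKO replicate 3 and WT replicate 4. They were high in DKO replicate 1 and WT replicates 3 and 5, but at -0.02 in DKO replicate 2 and -0.01 in WT replicate 2. Values of both lists are given beside the beta protocadherins, with those of some other lists, and the part of any list was not tested. Cdh10 had 2 further probe sets, which spanned a wider range between animals, 6.70 to 8.27 and 6.20 to 7.65 in DKO and 6.56 to 7.90 and 6.53 to 7.81 in WT.

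**Figure D2:**
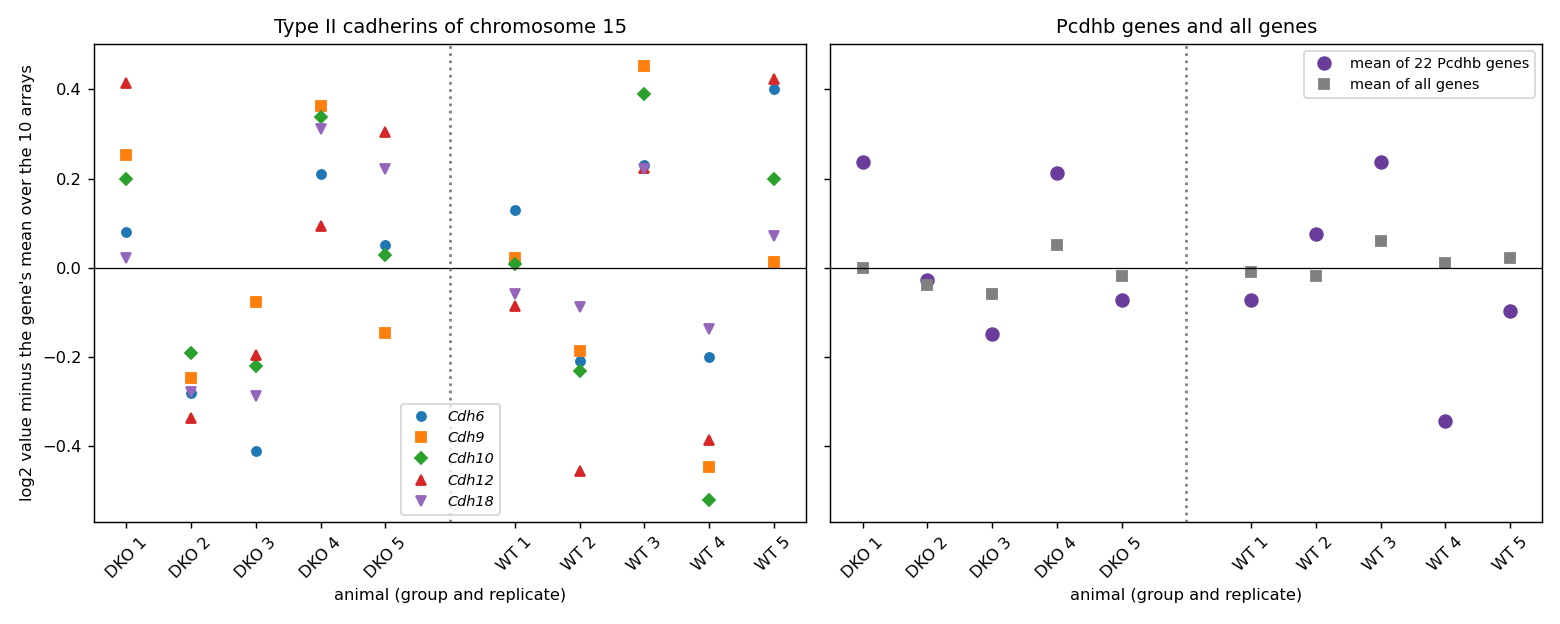
Deviation of the log2 value of each animal from the gene's mean over the 10 arrays (vertical axis, log2), for DKO animals on the left and WT animals on the right of each panel. The left panel shows the 5 type II cadherins of chromosome 15, and the right panel the mean over the 22 Pcdhb genes and over all genes. DKO replicate 4 and WT replicate 3 were high and WT replicate 4 was low for both gene sets, and neither set separates the groups.

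Desmosomal cadherins, which form the spot junctions of epithelia and heart, were dim in this tissue, with 5 of 7 below the median of all values on all arrays. Dsc3 reached 6.84, 7.03, 6.68, 7.21 and 6.45 in DKO forebrains, against 7.07, 6.80, 6.60, 5.76 and 6.52 in WT forebrains. WT replicate 4 lay far under the rest, and the difference of 0.29 (95% interval -0.22 to 0.80, limma's adjusted p = 0.873) was 0.09 without it. The opposite extreme, Dsg1b, was at 2.46 ± 0.20 in DKO and 2.66 ± 0.25 in WT (SD, n = 5 each), near the floor of the arrays. Of the other cadherins, Cdh16, known from kidney, averaged 5.27 ± 0.12 in DKO and 5.47 ± 0.24 in WT (SD, n = 5 each, difference -0.20). WT replicate 4 was its highest animal at 5.87, and without it the difference was -0.10.

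Among the non-clustered protocadherins 4 of 8 differences were above 0, with a median of -0.01, and 0 passed. Pcdh10, an adhesion molecule of striatal axons and of synapse elimination, was at 10.26, 9.98, 9.99, 10.17 and 10.14 in DKO forebrains, against 10.13, 10.05, 10.12, 10.04 and 10.19 in WT forebrains. The DKO range enclosed the WT range, and the difference was 0.002 (95% interval -0.21 to 0.21, limma's adjusted p = 0.998). Pcdh19, an X-linked protocadherin whose loss causes an epilepsy in humans, was at 10.49, 10.31, 10.44, 10.53 and 10.45 in DKO forebrains, against 10.76, 10.61, 10.19, 10.44 and 10.51 in WT forebrains. The WT animals spread more widely, and the difference was -0.06 (SE 0.119, limma's adjusted p = 0.946).

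A dimmer probe set of Pcdh19, picked after its values were seen, ran at 9.44, 9.45, 9.44, 9.48 and 9.49 in DKO forebrains, against 9.65, 9.57, 9.53, 9.51 and 9.50 in WT forebrains. Its groups did not overlap, yet the difference was only -0.09 (limma's adjusted p = 0.882, exact permutation p = 0.00794, the smallest this design gives), while 0.488% of all probe sets were lower and 0.468% higher in DKO without overlap. The other dimmer probe set of this gene differed by 0.11 in the other direction, without a call.

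Pcdh17, a protocadherin of corticobasal ganglia synapses, was at 9.81, 9.63, 9.74, 9.85 and 9.88 in DKO forebrains, against 9.88, 9.85, 9.66, 9.84 and 9.63 in WT forebrains. The groups covered the same range (difference 0.01, limma's adjusted p = 0.992). Its second, dimmer probe set had the greatest difference of any member row, 0.61 (95% interval -0.16 to 1.39, limma's adjusted p = 0.842), with 7.20 to 7.85 in DKO and 5.49 to 7.77 in WT. The value of 5.49 belongs to WT replicate 4, and without that array the difference was 0.27. Probe sets of 1 gene can read different exons, and which exons these read is not stated.

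Pcdh1 had the greatest negative difference of the non-clustered protocadherins, at 9.03, 8.83, 8.74, 8.46 and 8.84 in DKO forebrains, against 9.05, 8.74, 8.80, 9.38 and 9.05 in WT forebrains. The difference of -0.22 (95% interval -0.55 to 0.10, limma's adjusted p = 0.856) was -0.13 without WT replicate 4, the highest animal. Pcdh7, the gene with the greatest positive difference, averaged 8.96 ± 0.18 in DKO and 8.85 ± 0.22 in WT (SD, n = 5 each). WT replicate 4 was lowest there at 8.47, and without it the difference of 0.11 shrank to 0.01. Pcdh8, an activity-regulated protocadherin that acts in N-cadherin endocytosis, averaged 9.59 ± 0.31 in DKO and 9.61 ± 0.19 in WT (SD, n = 5 each), and DKO replicate 4 reached 10.10. Its difference of -0.02 was 0.04 without WT replicate 4.

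**Figure D3:**
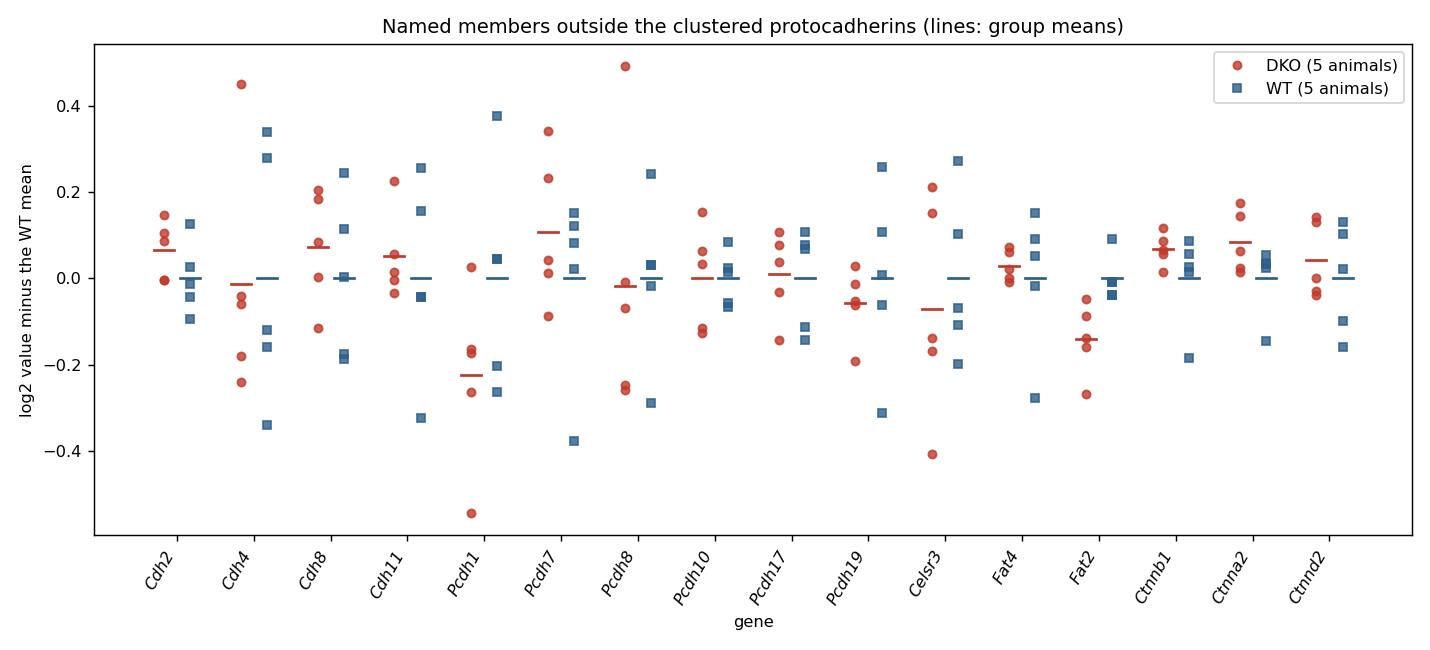
Log2 value of each animal minus the WT mean of the gene (vertical axis) for 16 members outside the clustered protocadherins, with DKO animals as circles and WT animals as squares. Short lines are group means of 5 animals. The groups overlap for every gene shown except Fat2, where all DKO values lie below all WT values by a small margin.

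Clustered protocadherins held the greatest positive differences among the members, though none passed. Of 24 genes 14 were above 0, 9 below and 1 at 0, with a median of 0.08, and 0.02 without WT replicate 4 (13 above and 11 below). They also varied more between animals of a group than genes at large, with a median residual SD of 0.28 log2 against 0.16 over all genes. The type II cadherins came close to this, at 0.24. These values are given as a description. The measured genes are 22 of the beta cluster (Pcdhb1 to Pcdhb22), Pcdha11 and Pcdhga10, all on chromosome 18. Beta genes are near-copies of each other and their probes may read more than 1 of them, so the value of a single gene is uncertain, and its part in the results below was not tested.

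Pcdhb6 had the greatest difference of all members. It was at 7.78, 7.74, 7.29, 7.98 and 7.74 in DKO forebrains, against 7.17, 7.60, 7.89, 6.99 and 7.06 in WT forebrains. In DKO 4 of 5 animals lay at 7.74 or above, while 3 of 5 WT animals lay at 7.17 or below, and the groups overlapped through DKO replicate 3 and WT replicates 2 and 3. The difference of 0.36 (SE 0.194, 95% interval -0.06 to 0.79) is 1.29-fold and did not pass (limma's adjusted p = 0.835, exact permutation p = 0.103). It was 0.28 without WT replicate 4.

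Pcdhb17, the member with the smallest p, was at 8.19, 7.58, 7.64, 7.68 and 7.49 in DKO forebrains, against 7.50, 7.64, 7.42, 6.85 and 7.39 in WT forebrains. DKO replicate 1 was highest and WT replicate 4 lowest, and the remaining 8 animals fell between 7.39 and 7.68 (difference 0.36, 95% interval -0.03 to 0.74, exact permutation p = 0.0556). Leaving out WT replicate 4 gave 0.23. Its neighbour Pcdhb18 differed by 0.31, and its 2 other probe sets by 0.22 and 0.50, all without a call, and without WT replicate 4 these were 0.19, 0.01 and 0.40. At the other end, Pcdhb2 was at 7.19, 6.89, 6.81, 7.08 and 7.10 in DKO forebrains, against 7.02, 7.28, 7.47, 7.08 and 7.21 in WT forebrains (difference -0.20, limma's adjusted p = 0.845). Pcdha11 and Pcdhga10 differed by 0.18 and -0.14, and by 0.04 and 0.004 without WT replicate 4, which was the lowest array for Pcdha11 and the highest for Pcdhga10. Pcdhga10 varied most of all members, with a residual SD of 0.48.

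**Figure D4:**
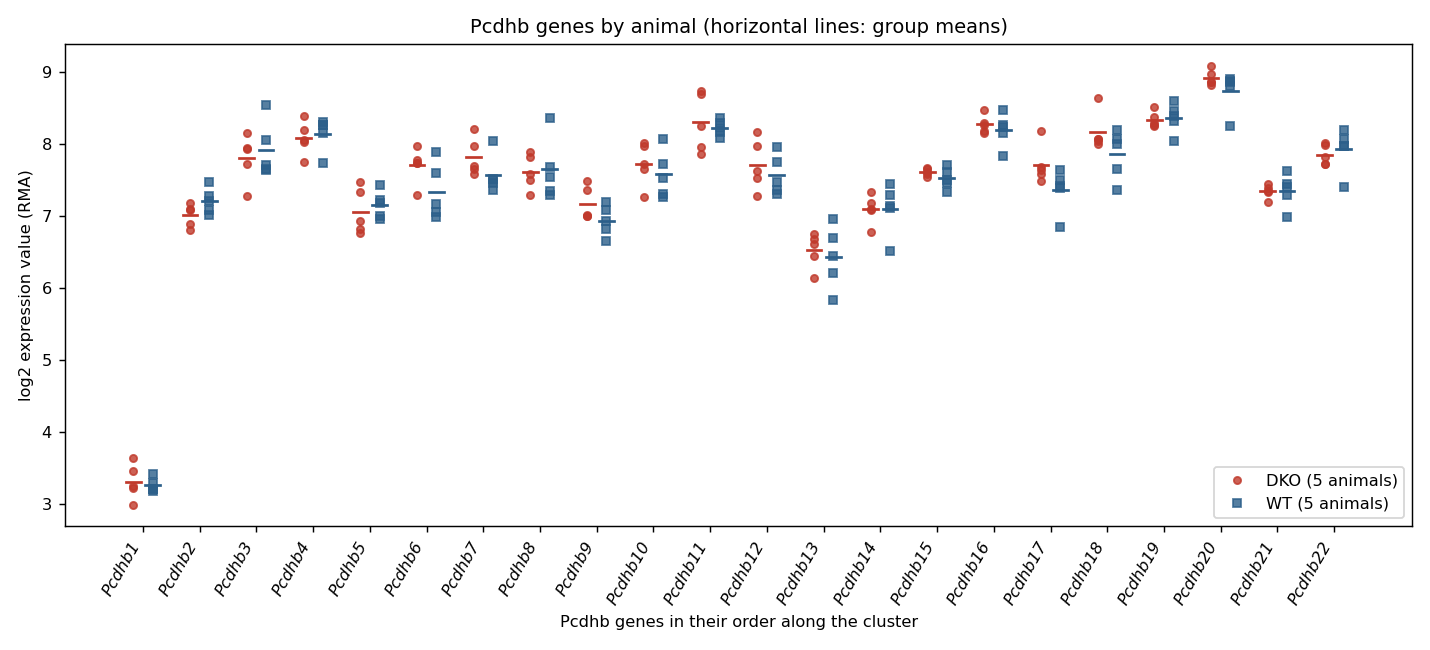
Log2 values of the 22 Pcdhb genes (vertical axis) in their order along the cluster (horizontal axis), with DKO animals as circles left of WT animals as squares. Horizontal lines are means of 5 animals. The groups overlap for every gene, and Pcdhb1 lies near 3.3 in both groups.

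Beta protocadherins varied together between animals in both groups. Over the 10 arrays the deviations from the group means correlated with a mean r of 0.55 over 231 gene pairs, of which 224 were above 0. The mean was 0.52 in the 5 DKO arrays alone, 0.56 in the 5 WT arrays alone and 0.48 without WT replicate 4. Over all pairs of genes on the array the mean r was 0.04, and over the 40 members outside the clustered protocadherins 0.07. Between the beta genes and the 5 type II cadherins of chromosome 15 it was 0.47 (110 pairs). These are descriptions, since the points share arrays and normalisation, and shared probe sequence was not tested.

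Close neighbours in the cluster were the most alike on average. The mean r was 0.64 for genes 1 to 3 places apart and 0.58 at 4 to 7 places. It was 0.48 at 8 to 14 places and 0.45 at 15 or more. Without WT replicate 4 the means were 0.57, 0.51, 0.44 and 0.37 in the same order. Pcdhb1, a dim gene at the end of the cluster, had r of -0.101 to 0.315 with Pcdhb16 to Pcdhb22. Its pairs weigh most in the most distant class. Means without Pcdhb1 were not taken, so a steady fall with distance is not established. Pcdhb3 and Pcdhb6 correlated at 0.97, Pcdhb20 and Pcdhb22 at 0.96, and Pcdhb13 and Pcdhb14 at 0.94, whereas Pcdhb8 and Pcdhb16 were at -0.14. From Pcdhb2 to Pcdhb12 the mean r was 0.66 (55 pairs), from Pcdhb16 to Pcdhb22 it was 0.82 (21 pairs), and between these runs it was 0.46 (77 pairs). Without WT replicate 4 these became 0.65, 0.57 and 0.41. Both runs were chosen after the correlations were seen, and Pcdhb13 to Pcdhb15 are in neither. The runs are not sharply divided: Pcdhb4 correlated at 0.81 with Pcdhb19 and at 0.25 with Pcdhb8. Pcdhb13 correlated at 0.79 with Pcdhb6 and at 0.88 with Pcdhb19.

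Averaged over the 22 beta genes, the deviation was 0.24, -0.03, -0.15, 0.21 and -0.07 in DKO forebrains, against -0.07, 0.08, 0.24, -0.34 and -0.10 in WT forebrains. DKO replicates 1 and 4 and WT replicate 3 were the high animals, WT replicate 4 was the lowest, and the groups overlapped throughout. WT replicate 4 held the lowest of the 10 values for 13 of the 22 genes, and WT replicate 3 the highest for 10. The runs did not follow each other in every animal: from Pcdhb2 to Pcdhb12 DKO replicate 3 was at -0.31 and DKO replicate 4 at 0.31, while from Pcdhb16 to Pcdhb22 they were at 0.02 and 0.04. The 3 measured neuron markers (Rbfox3, Stmn2 and Tubb3) had mean deviations of 0.19, -0.05, -0.26, 0.27 and 0.07 in DKO forebrains, against -0.05, -0.20, 0.12, -0.21 and 0.12 in WT forebrains, high in DKO replicates 1 and 4 and low in WT replicate 4 too. The 3 measured markers of endothelium and pericytes were at 0.14, -0.02, -0.16, 0.08 and -0.09 in DKO forebrains, against -0.06, -0.01, 0.16, -0.26 and 0.22 in WT forebrains. They were likewise high in DKO replicate 1 and WT replicate 3 and low in WT replicate 4. In WT replicate 5, however, both lists were high (0.12 and 0.22) and the beta genes were at -0.10. In WT replicate 2 the neuron markers were at -0.20 and the beta genes at 0.08. Other lists also varied between animals. In DKO replicate 4 and WT replicate 3 the forebrain markers (0.19 and 0.13) and those of radial glia and astrocytes (0.15 and 0.11) were highest of their group. Microglia markers were at 0.19 in WT replicate 3 and -0.12 in WT replicate 4. Markers of choroid plexus and ependyma varied most, from -1.07 to 0.80 in DKO and -1.28 to 0.79 in WT. The part of any marker list in the beta gene values was not tested.

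**Figure D5:**
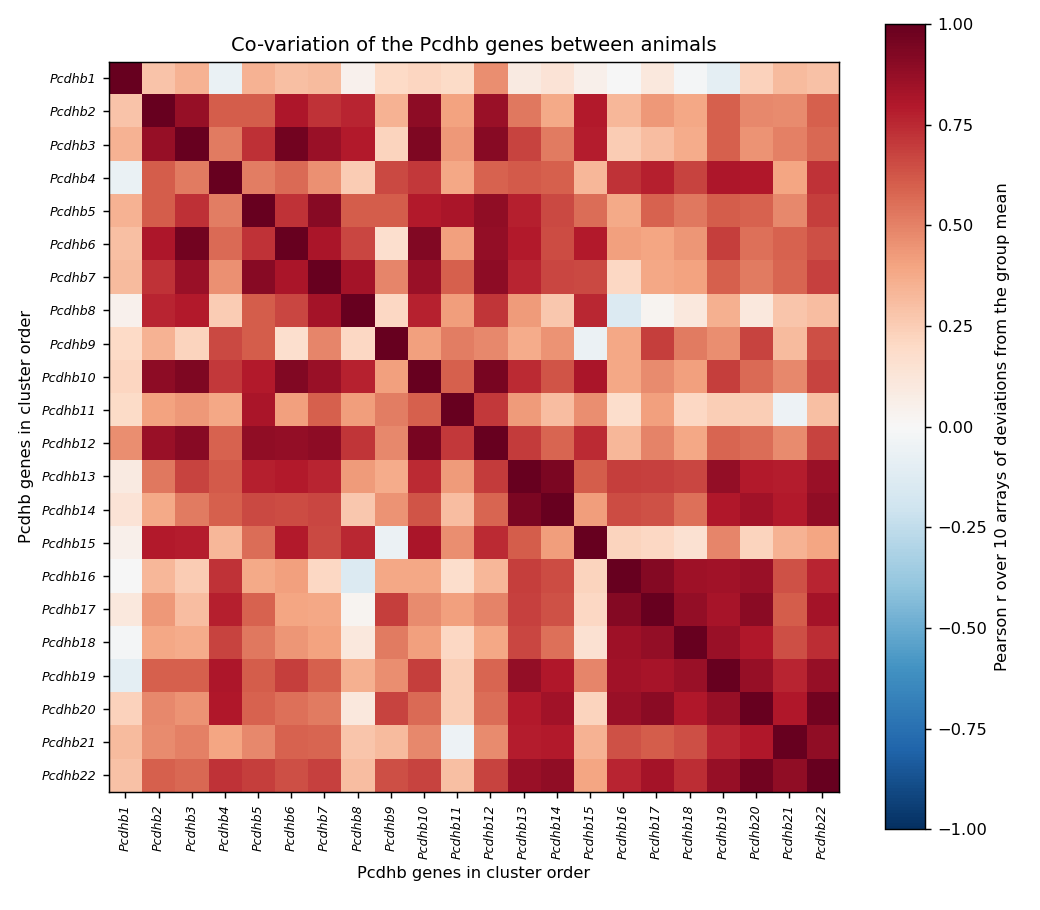
Pearson correlation between Pcdhb genes over the 10 arrays, computed on deviations from the group means (colour scale from -1 to 1), with both axes in cluster order. The mean r was 0.66 from Pcdhb2 to Pcdhb12 and 0.82 from Pcdhb16 to Pcdhb22, runs chosen after the correlations were seen. Without WT replicate 4 these means were 0.65 and 0.57. Pcdhb13 to Pcdhb15 are in neither run, and Pcdhb1 follows the others little.

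Of the Celsr and Fat cadherins Celsr3, which guides the main forebrain axon tracts, was at 9.44, 9.79, 9.73, 9.17 and 9.41 in DKO forebrains, against 9.85, 9.68, 9.51, 9.38 and 9.47 in WT forebrains. The groups overlapped widely (difference -0.07, limma's adjusted p = 0.946), and the difference was -0.12 without WT replicate 4. Fat4, a polarity and growth receptor of the cortical progenitor zone, averaged 10.88 ± 0.04 in DKO and 10.85 ± 0.17 in WT (SD, n = 5 each, difference 0.03). Its lowest value, 10.57, was that of WT replicate 4, and without it the difference was -0.04.

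Fat2, best known from cerebellar granule cells, was the only member whose groups did not overlap, at 5.11, 5.16, 5.09, 4.98 and 5.20 in DKO forebrains, against 5.21, 5.34, 5.24, 5.24 and 5.21 in WT forebrains. The nearest animals, DKO replicate 5 and WT replicates 1 and 5, were 0.01 apart, which is the step of the rounded values. The difference was -0.14 (SE 0.0903, 95% interval -0.34 to 0.06, limma's adjusted p = 0.851, exact permutation p = 0.00794). That is 1 of 64 members lower without overlap, against 0.754% of all genes, and 0 members higher, against 0.214%. The signal lay close to the median of all values, 5.15.

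Catenins varied little between animals of a group (median residual SD 0.09 log2 over 8 genes), with 5 of 8 differences above 0, a median of 0.03 and no call. Without WT replicate 4 the median was -0.02, with 3 of 8 above 0. Ctnnb1, beta-catenin, which links cadherins to alpha-catenin and relays Wnt signals, was at 11.48, 11.47, 11.50, 11.53 and 11.43 in DKO forebrains, against 11.50, 11.47, 11.43, 11.23 and 11.44 in WT forebrains. All animals but WT replicate 4 fell between 11.43 and 11.53. The difference of 0.07 (95% interval -0.14 to 0.27, limma's adjusted p = 0.918) was 0.02 without that array. Ctnna2, the alpha-catenin of neurons, was at 10.53, 10.52, 10.57, 10.68 and 10.65 in DKO forebrains, against 10.54, 10.53, 10.56, 10.36 and 10.54 in WT forebrains. WT replicate 4 was again lowest, and the difference was 0.08, or 0.05 without it (limma's adjusted p = 0.897 and 0.987).

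Ctnnd2, a catenin of dendrites and spines, averaged 10.47 ± 0.09 in DKO and 10.43 ± 0.13 in WT (SD, n = 5 each, difference 0.04, limma's adjusted p = 0.956), and its difference was 0.002 without WT replicate 4. Ctnnbip1, which blocks the binding of beta-catenin to TCF factors, was lowest relative to WT, at 8.22, 8.17, 8.07, 8.37 and 8.16 in DKO forebrains, against 8.30, 8.24, 8.32, 8.43 and 8.28 in WT forebrains. In DKO 4 of 5 animals lay below every WT animal, and DKO replicate 4 did not (difference -0.12, 95% interval -0.33 to 0.10, limma's adjusted p = 0.875, exact permutation p = 0.0952).

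Partners of these proteins were examined as lists, of which 38 genes were measured and 0 passed, nor had any an unadjusted p under 0.05. Cytoplasmic and lateral partners of classical cadherins had 5 of 8 differences above 0 and a median of 0.01. Planar polarity and Fat pathway genes had 5 of 10 above 0 (median 0.01), intracellular partners of protocadherins 5 of 7 (median 0.02), regulators of clustered protocadherin promoters 3 of 3 (median 0.13), genes of the beta-catenin destruction complex and Wnt targets 4 of 5 (median 0.09), and other cadherin superfamily genes 0 of 5 (median -0.11). Without WT replicate 4 the medians in this order were -0.03, -0.03, 0.007, 0.03, 0.04 and -0.11, with 3 of 8, 3 of 10, 4 of 7, 2 of 3, 3 of 5 and 0 of 5 genes above 0. The lists named 20, 15, 11, 10, 11 and 7 genes in the same order, so each was measured only in part. The smallest p belonged to Jup, plakoglobin, a relative of beta-catenin, at 8.14, 7.95, 7.85, 7.80 and 8.05 in DKO forebrains, against 8.08, 7.98, 8.15, 8.10 and 8.37 in WT forebrains. In DKO 4 of 5 animals lay below the WT median, and the difference of -0.18 (95% interval -0.42 to 0.07) did not pass (limma's adjusted p = 0.850, exact permutation p = 0.0873). Ret, the receptor of glial neurotrophic factors, which carries cadherin domains, averaged 6.20 ± 0.13 in DKO and 6.35 ± 0.08 in WT (SD, n = 5 each, difference -0.15, limma's adjusted p = 0.858).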

How the data were processed

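The authors deposited log2 expression values of exon arrays. Per the submitters' processing notes, RMA was run with Affymetrix Expression Console, and mm8 is the build named. RMA corrects for background, normalizes probe signals between arrays and combines probes into 1 value per probe set, which damps small differences, and the medians of the deposited arrays ran from 5.05 to 5.24. Values have 2 decimals and run from 1.94 to 13.03. Tool versions and the exons read by each probe set are not stated. The platform annotation gives 15419 of 65529 probe sets a single gene symbol, 961 several and 49149 none. A further 5 rows that name a member beside another symbol were left out. All 64 member symbols are in the RefSeq table of GRCm38.p6.

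Differences are DKO minus WT from limma 3.58.1 (lmFit, eBayes, R 4.3.3) on all probe sets, unfiltered and with no covariate, two-sided, with Benjamini-Hochberg adjustment. Single genes also have an exact permutation p from the 252 possible splits, two-sided, of which 0.00794 is the smallest. Tested on simulated data with 65529 probe sets, the model found 40% of 50 true 1.5-fold changes. Of those simulated at 2-fold it found 90%, at 4-fold 98%, and at 8-fold 100%, and 14 calls were false. Every size was simulated in the same data set, with noise drawn separately for each probe set. Many true calls ease the adjustment, whereas the real fit had 5 calls. These shares can therefore be higher than the share of such members that the real test would find. The number of arrays, 5 per group, limits the precision.

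By rule, named genes are 20 preset symbols where measured, the members with the greatest positive and negative difference in each family, members with an unadjusted p under 0.05, and the 2 partners with the smallest p. Cdh6, Cdh9, Cdh18, Pcdha11, Pcdhga10, the beta genes other than Pcdhb2 and Pcdhb6, and the dimmer rows of a gene were singled out with their values in view. Members and lists were chosen with earlier results of these data known. Alternatives changed the normalization (quantile, or medians centred), the probe sets (dim ones dropped, or those with a single symbol kept), the variance model (trend with robust fitting, or weights per array), the covariates (Xist, or pairs from nearest animal numbers) and the summary of a gene (mean of its rows), or omitted each array in turn.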

Additional observations from a re-analysis of the deposited data

Results flagged for a closer look

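In 64 groups of 5 values, each animal was examined for a gap to the nearest other animal that takes up over 0.71 of the group's range. The groups do not cover every member in both DKO and WT, so the values found are not a full list. Chance flags about 1 in 20 such groups, and 9 values were found, 4 of them in WT replicate 4. That array was low for Ctnna2, at 10.36 (others 10.53 to 10.56), for Ctnnb1, at 11.23 (others 11.43 to 11.50), for Pcdh7, at 8.47 (others 8.87 to 9.0), and for Elavl2, the neuronal family member that was not targeted, at 8.89 (others 9.20 to 9.29). Cdh4 was at 10.94 in DKO replicate 4 (others 10.25 to 10.45), and Dsg1b at 2.82 in DKO replicate 2 (others 2.34 to 2.40). Cdh24 was at 6.35 in WT replicate 5 (others 5.61 to 5.77), and Fat2 at 5.34 in WT replicate 2 (others 5.21 to 5.24). Elavl3 was at 10.52 in WT replicate 3 (others 11.16 to 11.39). None of the 7 members among these 9 values passed the test with or without these animals. Members outside the examined groups also hold animals that meet the rule. Examples in DKO replicate 1 are Pcdhb18, at 8.65 (others 8.08 or below), and Pcdhb17, at 8.19 (others 7.68 or below). An example in WT replicate 4 is Pcdhb20, at 8.26 (others 8.81 or above).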

How the results depend on the processing

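No member passed under any of the 19 alternatives, and the lowest adjusted p of a member was 0.643. Unadjusted p-values under 0.05 appeared for Fat2 among single-symbol probe sets, for Pcdhb6, Pcdhb17 and Pcdhb18 with Xist as a covariate, for Pcdhb6 without DKO replicate 3, for Pcdhb17 without WT replicate 2 and for Pcdhb6 and Pcdhb7 without WT replicate 3. Over all probe sets 5 passed, all lower in DKO, against 3 with single-symbol probe sets (1 higher, 2 lower), 3 with Xist as a covariate and 2 where nearest animal numbers formed a replicate block. Arrays left out in turn gave 1 to 6 calls (0 higher throughout), with 1 without DKO replicate 1, 4 or 5 or WT replicate 1, 2, 4 or 5. The cause was not tested. For Elavl4 the adjusted p was 0.0982 with the block, 0.0522 with Xist and 0.0275 to 0.0761 with single arrays left out. With dim probe sets left out, the desmosomal median was 0.10 in place of -0.07, since 2 bright genes remained. Small differences changed sign: Cdh4 with array weights (0.027) and over all rows (0.071), Fat4 with array weights (-0.004), Pcdh8 with array weights (0.013), Pcdh17 with quantile normalization (-0.016), and Pcdh10 with quantile normalization (-0.026), median centring (-0.006) and array weights (-0.003). Of 25 named members, 11 differed by 0.1 or more, and 0 of these changed sign under an alternative.

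Arrays left out in turn moved the members' median between -0.03 and 0.04, that of clustered protocadherins between 0.01 and 0.11, of non-clustered ones between -0.09 and 0.04, of type I cadherins between -0.04 and 0.08, of type II cadherins between -0.05 and 0.08, of Celsr and Fat cadherins between -0.14 and 0.01, and of catenins between -0.02 and 0.06. For named members that changed sign the ranges were Cdh10 -0.06 to 0.167, Cdh11 -0.029 to 0.116, Cdh4 -0.13 to 0.071, Celsr3 -0.14 to 0.014, Fat4 -0.04 to 0.068, Pcdh10 -0.036 to 0.034, Pcdh17 -0.026 to 0.048, Pcdh19 -0.136 to 0.006 and Pcdh8 -0.146 to 0.042. Animals with the nearest numbers had correlated deviations of 0.17 to 0.36 in 4 of 5 cases and -0.07 in the other, and in 4 of 5 the DKO animal was most like its own WT partner. That is a hint from the data, and the labels do not state the pairs. Dim probe sets limit what can be said of desmosomal genes.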
